A study of Mus musculus with 4 samples.

Results

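Chemokines are small secreted proteins that steer the movement of cells, and chemokine receptors are the G-protein-coupled receptors that read them. Genes were taken as members when their symbol was Ccl, Cxcl, Ccr or Cxcr followed by a number, using the platform annotation and only probe sets that name 1 gene. This gave 47 of 19938 measured genes: 19 CC ligands, 13 CXC ligands, 9 CC receptors and 6 CXC receptors. Of the 47, 45 were read by 1 probe set each, and a further 7 probe sets carried a matching symbol together with other symbols and were not used.

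CC ligands carry their first cysteines side by side, and CXC ligands have 1 residue between them. Some CXC ligands carry the residues ELR before this pair (ELR-type) and attract neutrophils through Cxcr2, while others are induced by interferon or act in tissue homing. Fibroblasts are a known source of several chemokines, among them Cxcl12, which retains blood stem cells in bone marrow, and Ccl2, which recruits monocytes.

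Total RNA was hybridised from 178B5 and 492B4, which are lines of induced pluripotent stem (iPS) cells, from v6.5, a line of embryonic stem (ES) cells, and from mouse embryonic fibroblasts (MEF), with 1 array each. The iPS lines and the MEF had a mixed genetic background of DBA/2, C57BL/6 and 129S4, whereas v6.5 came from an F1 cross between 129 and C57BL/6. The pluripotent lines were grown in ES cell medium on SNL feeder fibroblasts, which had been treated with mitomycin-C and carried a puromycin-resistance gene, and the MEF were grown in medium with serum and no feeder layer is named for them. Each line is 1 sample, and the labels give no ages or passages and do not say whether feeder cells were removed before RNA extraction.

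The deposited values were log values, read here as log2, with each probe set centred on its median over the 4 arrays. They give differences between arrays and no levels, so a member near 0 on every array may be equally active in all samples or silent in all of them, and levels of different genes cannot be compared. As a check of the labels, 10 of 10 pluripotent cell markers were higher in the 3 lines than in MEF, with a median of 6.06 log2. All 14 fibroblast markers lay below MEF in each line, with a median of -3.70 log2, and 8 of them were called lower (2 without iPS 178B5, 5 without iPS 492B4 and 14 without ES). The fibroblast markers stood at a median of -4.17 log2 from MEF in iPS 178B5, -4.85 log2 in iPS 492B4 and -2.62 log2 in ES, and 13 of 14 were higher in ES than in both iPS lines. Over all genes the median difference between the lines and MEF was -0.10 log2.

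A small group of chemokine genes was lower in the pluripotent lines. In limma's test over all genes, 7 of 47 members were lower in the 3 lines than in MEF and 0 were higher, where a call needs an adjusted p under 0.05 and at least 1 log2. The lower members were the ligands Cxcl12, Cxcl14, Cxcl5, Cxcl15, Ccl20 and Ccl9 and the receptor Cxcr6. By this rule 14.9% of the members were lower and 0% higher, against 9.71% and 7.9% of all 19938 genes, of which 17.6% were called in either direction. The share of members called was near that of all genes. At an unadjusted p under 0.05 the test passed 15 members, against 37.8% of all genes, and 2 of them were higher, against 16.7% of all genes. The median over the members was -0.22 log2. Setting the array medians equal moves every difference by 0.07 log2, and centring on reference genes moves it by -0.28 log2. Of the 14 reference genes 2 were themselves called higher and 2 lower, with a median of 0.30 log2 from MEF, so they are not a stable standard here. In bulk RNA fewer cells of a type and less RNA per cell cannot be told apart.

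Most members varied little between arrays. The 4 arrays spanned less than 0.5 log2 for 28 members (59.6%, against 42.9% of all genes), and 13 members spanned at least 1 log2 (27.7%, against 29.7%). MEF was the highest of the 4 arrays for 31 members (66%, against 47.7% of all genes) and the lowest for 4 (8.51%, against 30.1%).

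**Figure D1:**
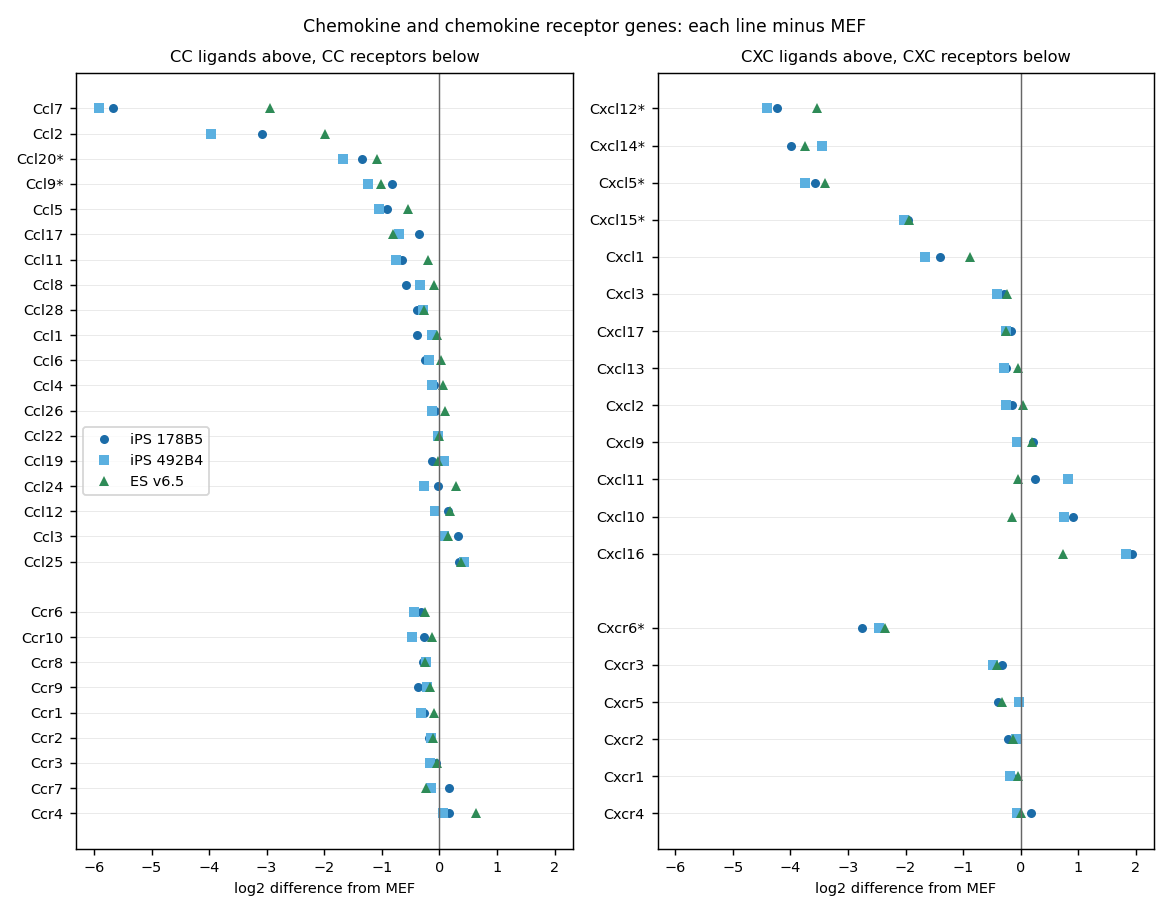
Log2 difference from MEF (horizontal axis) of each of the 47 members (rows) for iPS 178B5 (circles), iPS 492B4 (squares) and ES (triangles), with asterisks on the 7 members called lower in the 3 lines. Most rows sit near 0, while Ccl7, Cxcl12, Cxcl14 and Cxcl5 lie furthest to the left and Cxcl16 furthest to the right.

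Among CXC ligands, Cxcl12 binds Cxcr4 and Ackr3. Its centred log2 values were -0.35 in iPS 178B5, -0.51 in iPS 492B4 and 0.35 in ES, against 3.89 in MEF. MEF stood far above the 3 lines, and ES was the highest of the lines. Cxcl12 fell by 4.06 log2 in the lines (SD 0.46, n = 3 lines, adjusted p = 0.00738).

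Cxcl14 is a ligand of skin and other epithelia whose receptor is debated. It had values of -0.39 in iPS 178B5, 0.14 in iPS 492B4 and -0.14 in ES, against 3.60 in MEF, so that iPS 492B4 was here the highest of the lines. Cxcl14 fell by 3.73 log2 (SD 0.27, n = 3, adjusted p = 0.00548).

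Of the 5 ELR-type ligands 2 were called lower, against 9.71% of all genes. Cxcl5 had values of -0.08 in iPS 178B5, -0.26 in iPS 492B4 and 0.08 in ES, against 3.49 in MEF, and it fell by 3.58 log2 (SD 0.17, n = 3, adjusted p = 0.00495). Cxcl15, called lungkine for its expression in mouse lung epithelium, had values of -0.01, -0.08 and 0.01 in iPS 178B5, iPS 492B4 and ES, against 1.95 in MEF. The lines lay almost on one point, and Cxcl15 fell by 1.98 log2 (SD 0.05, n = 3, adjusted p = 0.00548).

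Cxcl1, the neutrophil attractant first described in growth-stimulated fibroblasts as KC, had values of -0.25 in iPS 178B5, -0.52 in iPS 492B4 and 0.25 in ES, against 1.14 in MEF. MEF was again the highest, but the lines were spread, and the difference of -1.32 log2 was not called (SD 0.39, n = 3, adjusted p = 0.0562). Without ES it was called at -1.53 log2 (adjusted p = 0.00875). Cxcl3 (-0.31 log2) and Cxcl2 (-0.12 log2), close relatives of Cxcl1, were not called (adjusted p = 0.208 and 0.664).

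These ELR-type ligands lie side by side. In the gene table of assembly GRCm38.p6 the order on chromosome 5 is Cxcl5, Ppbp, Pf4, Cxcl3, Cxcl15, Cxcl1 and Cxcl2. Ppbp and Pf4 are platelet chemokines whose symbols fall outside the naming rule. Ppbp had values of -0.62 in iPS 178B5, -0.54 in iPS 492B4 and 0.54 in ES, against 3.64 in MEF, and fell by 3.84 log2 (SD 0.64, n = 3, adjusted p = 0.0134). For Pf4, the next gene, the difference was -0.23 log2 (adjusted p = 0.318). In that order Cxcl5, Ppbp and Cxcl15 were called lower, and Pf4, Cxcl3, Cxcl1 and Cxcl2 were not called. The members are similar in sequence, and hybridisation of 1 transcript to another's probes was not tested.

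**Figure D2:**
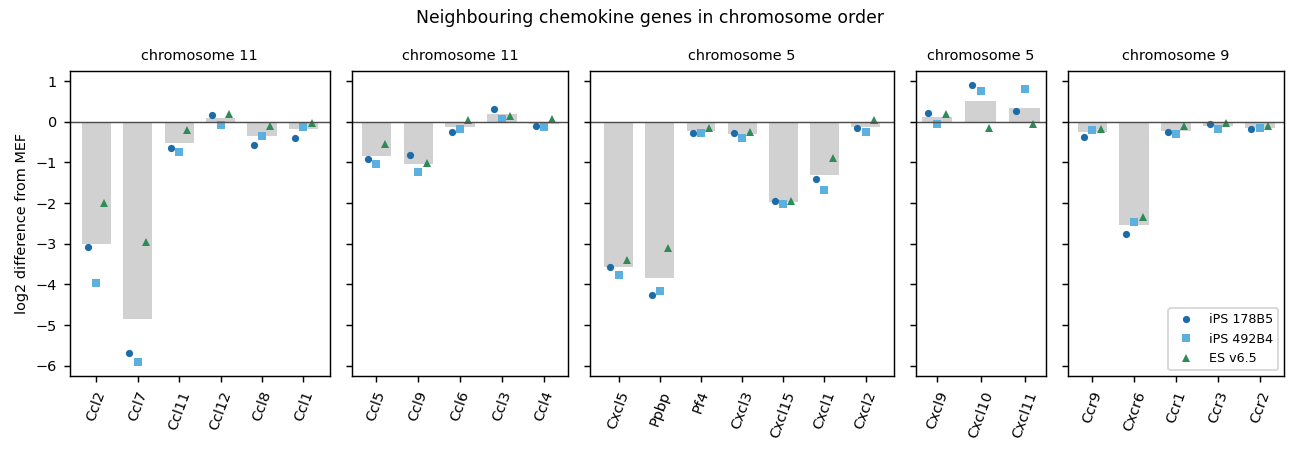
Log2 difference from MEF (vertical axis) of chemokine genes in chromosome order, for 5 groups of genes with at most 5 other annotated genes between neighbours. Bars are the mean of the 3 lines and points are iPS 178B5 (circles), iPS 492B4 (squares) and ES (triangles). Ccl2 and Ccl7 are tall neighbours, as are Cxcl5 and Ppbp, while Pf4 beside Ppbp and the genes beside Cxcr6 lie near 0. The bars of Cxcl9, Cxcl10 and Cxcl11 lie above 0, that of Cxcl9 only without reference gene centring.

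Promoter windows are printed for the called ligands that have one in the RefSeq table (GRCm38.p6), and for Cxcl1 with its neighbours Cxcl2 and Cxcl3, to show what the sequences before the start sites share and where they differ. Each line gives the 100 bases before the start site, 5′ to 3′ on the strand of the gene, and capitals mark matches to the kappaB consensus, the binding motif of NF-kB factors, on either strand.
Cxcl15: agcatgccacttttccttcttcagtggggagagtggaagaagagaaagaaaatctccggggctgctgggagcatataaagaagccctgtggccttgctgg
Cxcl1: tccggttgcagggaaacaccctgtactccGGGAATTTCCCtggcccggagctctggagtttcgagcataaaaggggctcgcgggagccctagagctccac
Cxcl2: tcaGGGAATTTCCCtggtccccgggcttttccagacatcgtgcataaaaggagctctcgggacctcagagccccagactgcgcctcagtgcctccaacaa
Cxcl3: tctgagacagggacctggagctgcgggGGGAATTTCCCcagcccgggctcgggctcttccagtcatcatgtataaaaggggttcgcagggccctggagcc
Cxcl12: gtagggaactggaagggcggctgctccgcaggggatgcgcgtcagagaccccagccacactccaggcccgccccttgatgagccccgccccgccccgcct
Cxcl14: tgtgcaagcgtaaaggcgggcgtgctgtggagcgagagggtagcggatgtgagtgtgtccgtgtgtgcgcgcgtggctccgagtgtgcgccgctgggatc
Ccl20: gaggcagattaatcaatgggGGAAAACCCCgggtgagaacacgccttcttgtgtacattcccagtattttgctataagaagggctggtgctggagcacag
Ccl9: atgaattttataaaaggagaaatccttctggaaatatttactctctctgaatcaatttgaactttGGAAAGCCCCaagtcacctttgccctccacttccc
The positions are chr5:90794434-90794533 on the plus strand for Cxcl15, chr5:90891145-90891244 on the plus strand for Cxcl1, chr5:90903799-90903898 on the plus strand for Cxcl2, chr5:90786001-90786100 on the plus strand for Cxcl3, chr6:117168435-117168534 on the plus strand for Cxcl12, chr13:56296552-56296651 on the minus strand for Cxcl14, chr1:83116666-83116765 on the plus strand for Ccl20 and chr11:83578637-83578736 on the minus strand for Ccl9.

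Cxcl1, Cxcl2 and Cxcl3 carry the letters GGGAATTTCC, starting 71 bases before the start site in Cxcl1, 97 in Cxcl2 and 73 in Cxcl3. In these 3 genes a second match on the other strand overlaps the first and is shifted by 1 base. Ccl20 and Ccl9 each hold a match of other letters, on the opposite strand. The printed windows of Cxcl15, Cxcl12 and Cxcl14 hold none. The difference from MEF was -1.32 log2 for Cxcl1, -0.12 log2 for Cxcl2 and -0.31 log2 for Cxcl3, which hold the same letters. Over whole windows of 300 bases, both strands, the consensus matched in 10 of 35 windows of members (28.6%) against 8.46% of all 32851 windows. The matches included Cxcl10, which lay above MEF, and Ccl1, Ccr1, Ccr3 and a window of Ccr6, none of them called. The whole windows of Cxcl12, Cxcl14, Cxcl15 and Cxcr6 held no match. GGGAATTTCC matched in 4 of 35 (11.4%) against 0.0883%. These letters were taken from the Cxcl1 window, so a match among the members was fixed in advance and this share is no test. These are matches of letters, and they show no binding. Windows were found for 33 of 47 members, and the 14 without a window included Ccl7, Ccl2, Cxcl5, Ccl5 and Cxcl16.

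The interferon-induced ligands Cxcl9, Cxcl10 and Cxcl11, which share the receptor Cxcr3, lay above MEF on average, but reference gene centring puts Cxcl9 below it. Cxcl10 had values of 0.54 in iPS 178B5, 0.37 in iPS 492B4 and -0.52 in ES, against -0.37 in MEF. Both iPS lines were above MEF and ES was below it, and the mean difference of 0.51 log2 was not called (SD 0.57, n = 3, adjusted p = 0.487). Cxcl11, which RefSeq lists as a transcribed pseudogene in the C57BL/6J genome, stood at 0.34 log2 (adjusted p = 0.555) and Cxcl9 at 0.11 log2 (adjusted p = 0.688).

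Cxcl16, a membrane-bound ligand and scavenger receptor, was the member furthest above MEF. Its values were 0.66 in iPS 178B5, 0.55 in iPS 492B4 and -0.55 in ES, against -1.27 in MEF. MEF was the lowest array and ES lay between MEF and the iPS lines. The mean difference of 1.49 log2 was not called over the 3 lines (SD 0.67, n = 3, adjusted p = 0.122) but leaving out ES gave a call, at 1.87 log2 (adjusted p = 0.00409).

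**Figure D3:**
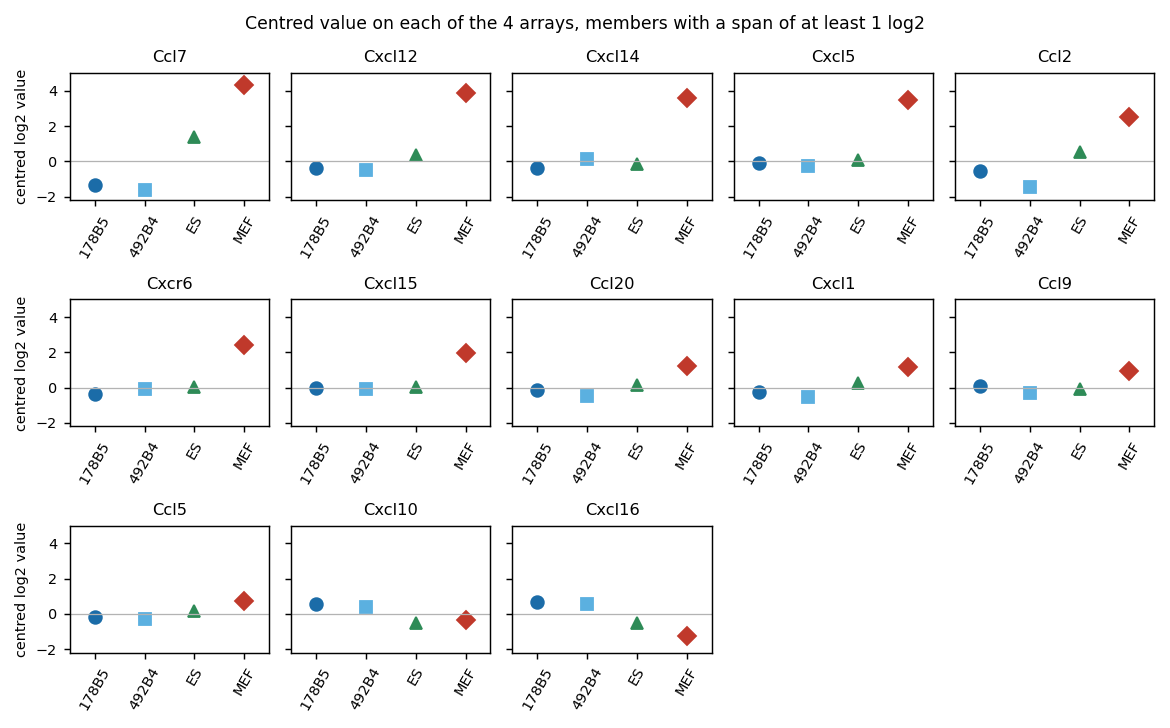
Centred log2 value (vertical axis) of the 13 members whose arrays span at least 1 log2, 1 panel per gene, with 1 point for each of iPS 178B5, iPS 492B4, ES and MEF. MEF is the highest point for 11 of the 13, ES lies above both iPS lines for 9, and for Cxcl10 and Cxcl16 the iPS lines are highest.

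Among CC ligands, the monocyte attractants Ccl7 and Ccl2 differed most from MEF but not evenly between the lines. Ccl7 had values of -1.36 in iPS 178B5, -1.60 in iPS 492B4 and 1.36 in ES, against 4.31 in MEF. Ccl2 had -0.54 in iPS 178B5, -1.44 in iPS 492B4 and 0.54 in ES, against 2.54 in MEF. For both genes MEF was highest, ES next and the iPS lines lowest, the same order as for the fibroblast markers, whose part in this was not tested.

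Neither was called over the 3 lines, whose values were spread. Ccl7 stood at -4.85 log2 (SD 1.65, n = 3, adjusted p = 0.0625) and Ccl2 at -3.02 log2 (SD 0.99, n = 3, adjusted p = 0.0592). Without ES both were called, Ccl7 at -5.80 log2 (adjusted p = 0.00187) and Ccl2 at -3.53 log2 (adjusted p = 0.00857). With the arrays centred on reference genes, which moves every difference by -0.28 log2, both were called as well (adjusted p = 0.0445 and 0.04).

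Ccl20, the ligand of Ccr6, had values of -0.13 in iPS 178B5, -0.45 in iPS 492B4 and 0.13 in ES, against 1.22 in MEF. It fell by 1.37 log2 (SD 0.29, n = 3, adjusted p = 0.0285), but with iPS 178B5 left out it missed the threshold (adjusted p = 0.0974). Ccl9, a rodent ligand of Ccr1, had values of 0.09 in iPS 178B5, -0.31 in iPS 492B4 and -0.09 in ES, against 0.92 in MEF. It fell by 1.03 log2 (SD 0.20, n = 3, adjusted p = 0.0312), just past the minimum of 1 log2. Without iPS 178B5 (adjusted p = 0.0772), without iPS 492B4 (-0.92 log2, adjusted p = 0.0529) or with each array's median set equal (-0.95 log2) it was not called.

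Ccl5, a T cell attractant also known as RANTES, had values of -0.18 in iPS 178B5, -0.32 in iPS 492B4 and 0.18 in ES, against 0.73 in MEF, and its difference of -0.83 log2 was not called (adjusted p = 0.0736). With reference gene centring it was, at -1.11 log2 (adjusted p = 0.032). Of the other 14 CC ligands, those furthest from MEF were Ccl17, a ligand of Ccr4, at -0.62 log2 (adjusted p = 0.125) and Ccl11, which draws eosinophils, at -0.53 log2 (adjusted p = 0.226), and the highest was Ccl25 at 0.38 log2. The arrays spanned under 1 log2 for all 14 of them.

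Some CC ligands also lie in rows, both on chromosome 11. In the order Ccl2, Ccl7, Ccl11, Ccl12, Ccl8 and Ccl1 the differences were large for the first 2 genes, and the other 4 lay between -0.53 and 0.09 log2. In the order Ccl5, Ccl9, Ccl6, Ccl3 and Ccl4, Ccl5 and Ccl9 stood at -0.83 and -1.03 log2, and the other 3 between -0.13 and 0.18 log2. Of the genes with several probe sets, the 5 for Ccl19 lay between -0.04 and -0.01 log2. The 2 for Ccl25 lay at 0.47 and 0.30 log2, with ES the highest line in one and the lowest in the other.

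Among the receptors 1 was called. Cxcr6, the receptor of Cxcl16 on T cells and natural killer cells, had values of -0.35 in iPS 178B5, -0.06 in iPS 492B4 and 0.06 in ES, against 2.41 in MEF. It fell by 2.53 log2 (SD 0.21, n = 3, adjusted p = 0.00625). Its ligand Cxcl16 lay on the other side of MEF in each line. In the gene table Cxcr6 lies within the span of Fyco1, which encodes an adaptor of vesicle transport, and Fyco1 fell too, by 1.64 log2 (SD 0.14, n = 3, adjusted p = 0.00854). Whether Cxcr6's probes read Fyco1 RNA was not tested.

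Markers of leucocytes, which carry such receptors, and of endothelial cells and keratinocytes were read beside Cxcr6. Of 15 lymphocyte markers 0 were lower in the lines and 1, Cd79b, was higher, with a list median of -0.01 log2 (0.06 log2 in ES and below 0 in both iPS lines). Leaving out iPS 178B5 ended the call of Cd79b, and leaving out ES gave 3 higher. Of 19 macrophage markers 0 were lower and 1, Laptm5, was higher, with a median of -0.29 log2, while leaving out ES gave 2 higher and 2 lower. Of 11 neutrophil markers 0 were called in either direction, with a median of -0.21 log2. Of 14 endothelial markers 2 were higher and 2 lower, against 1 higher and 1 lower without iPS 178B5 and 1 higher and 2 lower without ES or with reference gene centring. Of 11 keratinocyte markers 1 was higher, Sfn. With all 4 arrays, 9.71% of all genes were called lower and 7.9% higher. The part of these cells in the results was not tested.

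None of the 9 CC receptors was called in limma's test, and 0 passed at an unadjusted p under 0.05, against 17.6% and 37.8% of all genes. They lay between -0.34 log2 for Ccr6, the receptor of Ccl20, and 0.29 log2 for Ccr4, a receptor of T helper cells. Ccr2, the receptor of Ccl2 and Ccl7, differed by -0.14 log2, and Ccr10, a receptor of skin-homing T cells, by -0.29 log2. The other 5 CXC receptors lay between -0.41 log2 (Cxcr3, adjusted p = 0.121) and 0.04 log2 (Cxcr4), with Cxcr5, the receptor of Cxcl13, at -0.25 log2. Ccr2, Cxcr4 and Ackr3 were looked up after their ligands' values were seen. Cxcr4 had values of 0.17 in iPS 178B5, -0.06 in iPS 492B4 and 0.00 in ES, against -0.00 in MEF (adjusted p = 0.889). Ackr3, the scavenger of Cxcl12, stood at -0.64 log2 (adjusted p = 0.0466), under the minimum of 1 log2.

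The 3 groups were also compared in a model whose spread came from the 2 iPS lines alone, with 1 residual degree of freedom. For iPS against MEF, 10 members were lower and 1 was higher (21.3% and 2.13%), against 11.2% and 9.94% of all genes, of which 21.1% were called either way. This is the same test as that of the lines without ES given above, and no separate support for its calls. Beside the 7 members above, it called Ccl7 (-5.80 log2, adjusted p = 0.00187), Ccl2 (-3.53 log2, adjusted p = 0.00857) and Cxcl1 (-1.53 log2, adjusted p = 0.00875) lower. Cxcl16 was higher (1.87 log2, adjusted p = 0.00409). Ccl9 (-1.03 log2) was not called with equal array medians (-0.94 log2).

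For ES against MEF, 7 members were lower and 0 higher (14.9% and 0%), against 10.9% and 9.14% of all genes, of which 20% were called either way. At an unadjusted p under 0.05 limma passed 2 members as higher, against 17.5% of all genes. The lower members were Ccl7 (-2.95 log2, adjusted p = 0.00659), Cxcl14 (-3.74 log2), Cxcl12 (-3.54 log2), Cxcl5 (-3.41 log2), Cxcr6 (-2.35 log2), Cxcl15 (-1.94 log2) and Ccl20 (-1.09 log2). Ccl2 at -1.99 log2 (adjusted p = 0.0514) and Ccl9 at -1.02 log2 (adjusted p = 0.0593) were not called, and Cxcl16 at 0.73 log2 (adjusted p = 0.0475) and Cxcl1 at -0.89 log2 (adjusted p = 0.0495) were under the minimum of 1 log2. With equal array medians Ccl2 was called (adjusted p = 0.0438). These comparisons share the MEF array.

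Between the iPS lines and ES, 0 members and 0% of all genes were called by limma, while 9 members and 15.4% of all genes passed at an unadjusted p under 0.05. The largest differences, iPS minus ES, were -2.85 log2 for Ccl7 (adjusted p = 0.0634), -1.53 log2 for Ccl2 (adjusted p = 0.255), 1.15 log2 for Cxcl16 (adjusted p = 0.12) and 0.98 log2 for Cxcl10 (adjusted p = 0.153). Ccl7 was called with equal array medians (adjusted p = 0.0448) or reference gene centring (adjusted p = 0.042). ES was the highest of the 3 lines for 30 members (63.8%, against 47.7% of all genes) and for 13 of 14 fibroblast markers. The fibroblast markers' median, iPS minus ES, was -1.94 log2.

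Between the 2 iPS lines, compared by value with no test, 492B4 minus 178B5 lay between -0.89 log2 (Ccl2) and 0.56 log2 (Cxcl11). The median size of that difference was 0.16 log2 over the members and 0.14 log2 over all genes. Cxcl14 (0.54 log2) was higher in 492B4 and Ccl9 (-0.41 log2) in 178B5. The line 492B4 was the lowest of the 3 lines for 27 members (57.4%, against 42.2% of all genes).

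Other genes of the chemokine system were read from lists. Of 15 system genes with other names, 2 were lower and 1 higher in the 3 lines, against 9.71% and 7.9% of all genes. Beside Ppbp, Cx3cl1 (fractalkine), a membrane-bound ligand, had values of -0.07 in iPS 178B5, -0.34 in iPS 492B4 and 0.07 in ES, against 1.86 in MEF, and fell by 1.98 log2 (SD 0.21, n = 3, adjusted p = 0.00885). Dpp4, a peptidase that trims chemokines such as Cxcl12, had values of 0.00 in iPS 178B5, -0.00 in iPS 492B4 and 0.37 in ES, against -1.31 in MEF, and rose by 1.43 log2 (SD 0.21, n = 3, adjusted p = 0.0159). Leaving out iPS 178B5 ended the call of Dpp4 (adjusted p = 0.0632) and left 0 genes higher. Cmklr1, the receptor for chemerin, differed by 0.93 log2 (adjusted p = 0.264), and leaving out ES brought it to 1.29 log2 (adjusted p = 0.00803) and the count of higher genes to 2.

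Of 28 genes that carry or limit receptor signals, 4 were lower and 2 higher, against 9.71% and 7.9% of all genes. Their median was -0.23 log2. Rgs4 and Rgs16, which switch off G proteins, were both lower: Rgs4 fell by 2.60 log2 (adjusted p = 0.00842) and Rgs16 fell by 1.81 log2 (adjusted p = 0.0293). Gng12, a G protein subunit, fell by 1.84 log2 (adjusted p = 0.00842). Arrb2, an arrestin that internalises receptors, rose by 2.24 log2 (adjusted p = 0.0185). Leaving out iPS 178B5 ended the calls of Rgs16 (adjusted p = 0.0947) and Arrb2 (adjusted p = 0.0632), with 1 gene still higher. Leaving out iPS 492B4 also ended that of Rgs16 (adjusted p = 0.0507). The fit that left out ES called 3 genes higher.

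Of 30 NF-kB pathway genes and inducers of chemokines, 12 were lower and 0 higher, against 9.71% and 7.9% of all genes. The list median was -0.94 log2. Of the NF-kB factors measured, Rela fell by 1.44 log2 (adjusted p = 0.0222), and Nfkb2 (-0.62 log2), Rel (-0.55 log2) and Relb (0.02 log2) were not called. Their regulators, from Nfkbiz (-1.01 log2) and Ikbkb (-0.97 log2) to Nfkbib (0.69 log2), were not called either. The other genes called were receptors or receptor subunits, the adaptors Myd88 and Ticam1, and Cebpb and Cebpd. Tlr4, the receptor for lipopolysaccharide, fell by 3.08 log2 (SD 0.18, n = 3, adjusted p = 0.00548). Of the receptors for TNF, Tnfrsf1a fell by 2.81 log2 (adjusted p = 0.00643) and Tnfrsf1b fell by 1.81 log2 (adjusted p = 0.0215). Ifngr2, a subunit of the interferon-gamma receptor, fell by 2.48 log2 (adjusted p = 0.0153). Leaving out iPS 178B5 gave 6 lower, against 3.73% of all genes in that fit, and the call of Tnfrsf1b ended (adjusted p = 0.0566). Reference gene centring gave 17 lower, against 14.5% of all genes.

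Among 20 other cytokine genes that fibroblasts can make, 4 were lower and 0 higher, against 9.71% and 7.9% of all genes. Their median was -0.65 log2. Il1rn, which blocks the interleukin-1 receptor, fell by 4.33 log2 (SD 0.30, n = 3, adjusted p = 0.00548). Csf1, the macrophage growth factor, fell by 3.13 log2 (adjusted p = 0.00596), Hgf (hepatocyte growth factor) fell by 2.29 log2 (adjusted p = 0.0122) and Kitl (Kit ligand) fell by 1.86 log2 (adjusted p = 0.00741). Leaving out iPS 178B5 ended the call of Hgf (adjusted p = 0.0525). The count lower was 7 without ES, against 11.2% of all genes in that fit, and 9 with reference gene centring, against 14.5%.

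**Figure D4:**
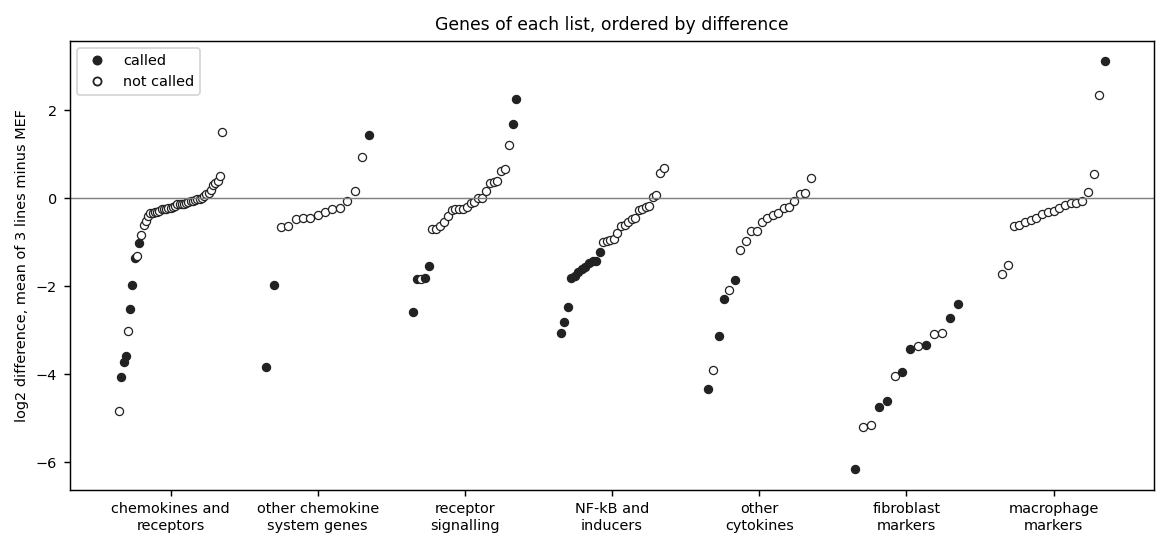
Log2 difference between the mean of the 3 lines and MEF (vertical axis) for the genes of 7 lists (columns), ordered by value within each list, with called genes filled and others open. Most of the 47 chemokine and receptor genes lie near 0 with a tail below 0. The list of NF-kB genes and inducers has 12 called falls of 30 genes, of which Rela is the only NF-kB factor. The fibroblast markers lie wholly below 0.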

How the data were processed

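The data were 1-colour Affymetrix array values for 28853 probe sets in 4 samples, with 1 array per sample. Per the submitters' processing notes the authors used GCRMA, of unstated version. The deposited values were taken as log2, although the base was not stated. In the deposited table each probe set's median over the 4 arrays was 0 within 1e-06. Level, background and depth are therefore unknown, and 4 arrays limit the precision.

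The platform annotation gave 1 symbol for 21789 probe sets, several for 1621 and none for 5443. Of the probe sets with 1 symbol, 21698 had a gene identifier that matched the table of assembly GRCm38.p6, which changed 0 symbols. Values were averaged per gene. Linear models with empirical Bayes moderation were fitted to all 19938 genes with limma 3.58.1 in R 4.3.3, with Benjamini-Hochberg adjustment. The code was also run on simulated data with the same spread on every array, which cannot show whether MEF varies like the lines. The fit of the 3 lines against MEF had 2 residual degrees of freedom and the fit of iPS, ES and MEF had 1. Lone arrays were assumed to vary like the lines, which are not known to be repeat cultures. The p-values therefore reflect only how far these lines differ among themselves. No minimum on level was possible.

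The members and lists were chosen with earlier results of these data known. Members were named when called in a comparison or when 2 arrays differed by at least 1 log2, with the 2 furthest from MEF of the rest of each class. Of other lists up to 4 called genes were named, and of the other chemokine system genes those whose arrays differed by at least 1 log2. ELR-type ligands were set from general knowledge, since no protein sequences were used. Promoter windows of 250 bases before and 50 after the start site came from RefSeq. Alternatives were leaving out a line, 2 other scalings, genes with 1 probe set, single probe sets, robust moderation, a variance trend and no minimum difference.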

Additional observations from a re-analysis of the deposited data

Results flagged for a closer look

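For 7 members both iPS lines lay on one side of MEF and ES on the other. The share of all genes with this pattern was not counted, so whether 7 is many or few is not known. The difference, iPS minus ES, was 0.98 log2 for Cxcl10, 0.59 log2 for Cxcl11, -0.42 log2 for Ccl24, -0.25 log2 for Ccl6, -0.24 log2 for Cxcl2, -0.20 log2 for Ccl26 and -0.18 log2 for Ccl4. In limma's test of iPS against ES 0 of the 7 were called, with adjusted p of 0.153 for Cxcl10 and 0.411 for Cxcl11, and 0 lay at least 0.5 log2 from MEF on both sides. The interferon-induced ligands Cxcl10 and Cxcl11 were the 2 of these that were higher in iPS.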

How the results depend on the processing

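Of the 7 members called lower in the 3 lines, Cxcl12, Cxcl14, Cxcl5, Cxcl15 and Cxcr6 were called under every alternative that was run, and each of the 13 members with a span of at least 1 log2 kept its direction in that comparison. For iPS against ES, Ccl9 stood at -0.01 log2 and, with equal array medians, at 0.03 log2. The number lower was between 5 and 10 when 1 line was left out, and the number higher between 0 and 1 (1 without ES). Of all genes 3.73% were lower without iPS 178B5, 8.72% without iPS 492B4 and 11.2% without ES, which had 9.94% higher. The members' median was between -0.26 and -0.19 log2 in those fits.

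With reference gene centring, from 14 genes, every difference moved by -0.28 log2, the number lower was 11, against 14.5% of all genes, and the median -0.50 log2. With equal array medians the median was -0.15 log2. Over all genes 1104 were higher and 2888 lower with reference gene centring, against 1576 and 1936 as deposited. For ES against MEF reference gene centring gave 11 members lower and 3124 of 19938 genes lower, and for iPS against ES each scaling gave 1 member lower, Ccl7, among 29 genes lower. On adjusted p alone, 2 members were higher for iPS against MEF and 1 for ES against MEF. Apart from these shifts the cause was not tested. The same settings for the other lists, and both scalings for single members in the comparison of 3 groups, were chosen after seeing the data.

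No paired analysis was possible because MEF and ES had 1 array each. With centred values, low signal cannot be told from background. Leaving out an iPS line in the comparison of 3 groups leaves no residual degree of freedom, so no test was made there.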
